A study of Bos taurus with 24 samples.

Results

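Growth factors of the EGF and FGF families, with the receptor EGFR, were followed in cultured bovine dermal fibroblasts (DF) before and after lipopolysaccharide (LPS). The members were chosen by symbol: HBEGF, AREG, EREG, EGFR, FGF1, FGF2, FGF7, FGF10 and FGF18, and a row without a gene symbol on chromosome 20 that overlaps FGF18 was added. Of these 10 members, 9 had a row among the 59846 rows of the expression tables, of which 27550 carried a gene symbol. No row carried the symbol AREG. Where a symbol stood on several rows, the row with the most reads over all samples was taken.

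DF came from skin biopsies of the shoulder of female Holstein (dairy) and Angus (beef) animals of the same age, with 4 animals per breed. Cultures from each animal were sampled untreated (0 h) and after 2 h and 8 h of 100 ng/ml LPS, which gave 6 groups of 4 and 24 poly(A) RNA-seq libraries. All groups grew in the same serum-containing medium with insulin, transferrin and selenium, and no group was sampled untreated at 2 h or 8 h, so time in the changed culture and LPS cannot be told apart. A replicate number stands for an animal, so the 3 hours of a number come from the same animal.

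EGF-family ligands such as HBEGF, EREG and AREG are made as membrane-bound precursors, are released by sheddases such as ADAM17, and bind EGFR. FGFs bind FGF receptors together with heparan sulfate: FGF7 and FGF10 are fibroblast products that act mainly on epithelial cells, FGF1 and FGF2 bind a broader set of receptors, and FGF18 is best known from cartilage, bone and hair follicle. Both receptor families signal through RAS and ERK, and ERK activity induces its own inhibitors, among them the DUSP phosphatases and the Sprouty proteins.

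The tables gave 51014538 to 104406293 counts per library, and 3 counts corresponded to 0.029 to 0.059 CPM (counts per 1000000 counts of the library). Levels below are CPM scaled by the trimmed mean of M values (TMM) over all 24 libraries. They are not corrected for length, so levels are compared within a row only. The summed level of the 10 fibroblast markers was 37555 to 123978 CPM, and all were detected in every library. The 7 keratinocyte markers summed to 1.35 to 14.99 CPM, and KRT1 was at 0 in every library. Holstein animal 1 alone held over 1 CPM of KRT5, an epidermal keratin, with 9.20, 8.32 and 10.2 CPM at 0, 2 and 8 h. The leukocyte, endothelial and melanocyte lists each stayed at or below 3.51 CPM. In 4 libraries (Angus 4, Holstein 2 and Holstein 4 at 0 h, Angus 3 at 2 h) the COL1A1 row was counted differently, each count standing for 66.2 to 67.1 covered bases, where the remaining libraries had 111.8 to 119.0. They also had 96.23% to 96.54% of reads matched, against 92.88% to 95.25% in the remaining libraries. The difference was thus not confined to COL1A1, and as most of the 4 are 0 h libraries, it falls partly together with the LPS comparisons. Calls named below that were lost or gained without these 4 libraries are given with both values. The breed comparison at 0 h then had 5 libraries, and 258 of all rows passed the threshold defined below, against 777. At 2 h it had 7, lacking Angus 3 alone. Comparisons with 0 h within a breed had 6 or 7 of 8. The counting difference was not tested apart from the loss of libraries. RNA from whole cultures cannot tell fewer expressing cells from less RNA per cell.

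A row entered a comparison when it reached 1 CPM in at least 50% of the libraries compared. It passed the threshold at a false discovery rate (FDR, edgeR likelihood ratio test with Benjamini-Hochberg adjustment over all rows tested) under 0.05 with a fold change of at least 2 and a mean above 1 CPM. Changes that met the FDR limit alone are called changes of less than 2-fold. After 2 h of LPS, 1 of the 8 member rows tested passed (HBEGF), against 2.82% of all rows. It alone met the FDR limit with libraries taken as independent, where 22% of all rows met it. With the animal as a block, 9575 of the 20157 rows met that limit, HBEGF, FGF7, FGF10 and the interval over FGF18 among them. The counts that follow are likewise for libraries taken as independent. After 8 h, 2 of 7 passed (FGF7 and the interval over FGF18), against 1.42% of all rows, and EGFR and FGF1 brought the count at the FDR limit to 4, against 12.8% of all rows. Between 2 h and 8 h, 3 of 8 passed (HBEGF, FGF7 and the interval), against 2.76% of all rows, and 5 met the FDR limit, against 23.8%.

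Within Angus, 1 of 8 member rows passed at 2 h (HBEGF; 2.98% of all rows) and 1 of 7 at 8 h (the interval; 0.863%). At the FDR limit alone these counts were 2 and 4, where 13.8% and 3.9% of all rows met it. Within Holstein, 1 of 8 passed at 2 h (HBEGF; 3.14%) and 2 of 7 at 8 h (FGF7 and the interval; 2.51%). At the FDR limit alone these were 2 and 4, against 17.2% and 14.7% of all rows. The Holstein and Angus comparisons with LPS share no libraries with each other, but the 2 h and 8 h comparisons of a breed share the same 0 h libraries.

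Between breeds, 1 of 7 member rows passed at 0 h (FGF10; 3.81% of all rows), 2 of 8 at 2 h (FGF10 and the interval; 4.45%) and 0 of 7 at 8 h (3.24%). FGF2 met the FDR limit at each hour, which made the counts 2, 3 and 1, against 13.8%, 20.1% and 16.5% of all rows. No member row passed the test of the breed by LPS interaction at 2 h (0 of 8, against 0.278% of all rows, and 0.437% at the FDR limit) or at 8 h (0 of 7, against 0.0982% and 0.137%) with libraries taken as independent. With the animal as a block, HBEGF passed at 2 h and the interval at 8 h, as given below.

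**Figure D1:**
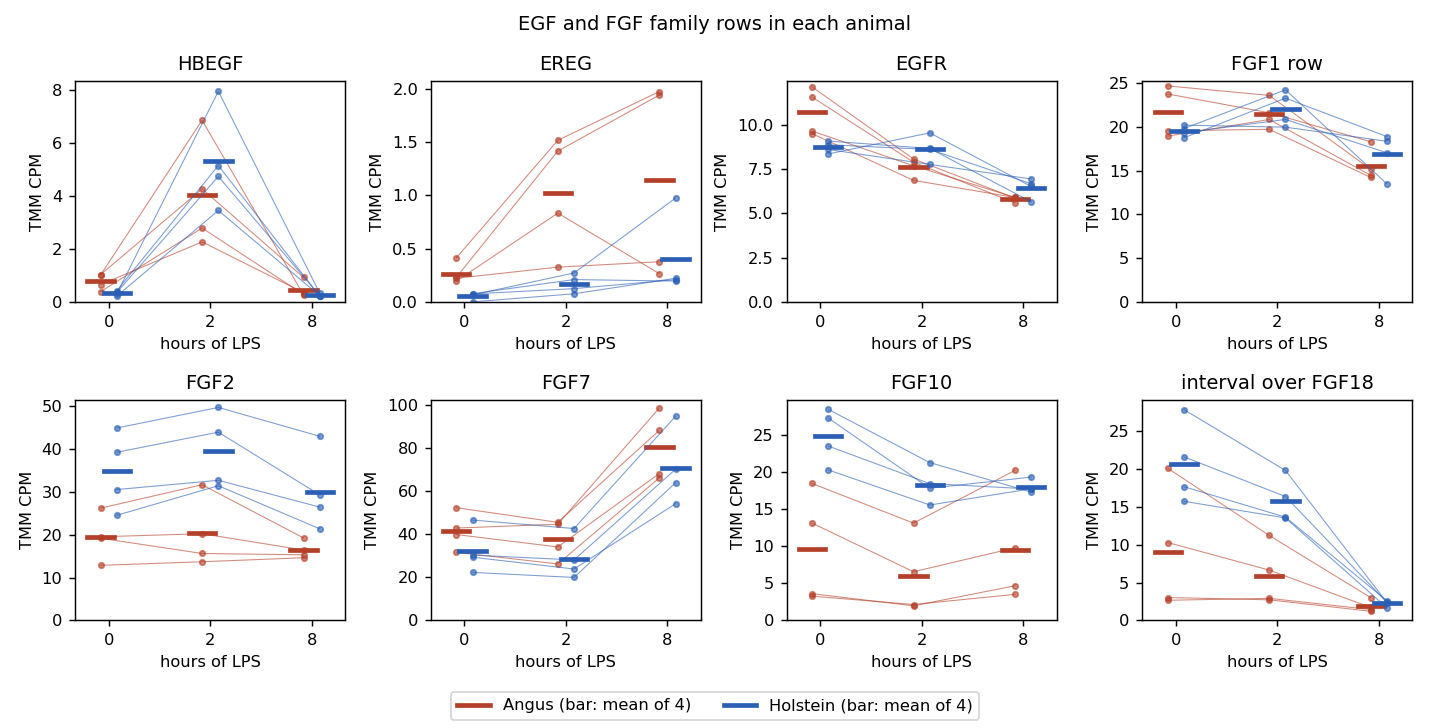
TMM-scaled CPM (vertical axes, each starting at 0) of 8 member rows against hours of LPS, with a thin line for each animal and a thick bar for the mean of 4 animals per breed. HBEGF peaked at 2 h in all 8 animals, FGF7 was highest at 8 h in all 8, and FGF10 was above every Angus animal in all Holstein animals at 0 h and 2 h.

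HBEGF, heparin-binding EGF-like growth factor, lies on the minus strand of chromosome 7 (UMD v3.1, 53216665 to 53227848). At 0 h the 4 Angus animals held 1.03, 0.385, 1.02 and 0.653 CPM and the 4 Holstein animals 0.358, 0.422, 0.221 and 0.307 CPM. At 2 h the values were 4.27, 2.79, 6.86 and 2.27 CPM in Angus and 4.74, 5.15, 3.45 and 7.96 CPM in Holstein. Every animal was higher at 2 h, and the 0 h and 2 h values did not overlap in either breed. At 8 h Angus held 0.923, 0.282, 0.262 and 0.349 CPM and Holstein 0.229, 0.209, 0.228 and 0.321 CPM, which returned each animal to near or below its own 0 h level. HBEGF was thus high at 2 h and low at the hours before and after it.

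The 2 h rise of HBEGF was 3.09 on the log2 scale (SE 0.34, FDR 1.24e-15, n = 8 per hour), or 8.49-fold. In Angus it was 2.40 (SE 0.43, FDR 4.44e-06) and in Holstein 4.02 (SE 0.33, FDR 4.52e-28), or 5.27-fold and 16.2-fold. The larger Holstein change went with a lower start, a mean of 0.327 ± 0.085 CPM (SD, n = 4) against 0.772 ± 0.312 CPM in Angus, while the levels reached at 2 h, 5.33 ± 1.90 and 4.05 ± 2.06 CPM, differed by 0.39 on the log2 scale (SE 0.39, FDR 0.511). The test of the interaction gave 1.63 (SE 0.57, FDR 0.351) with libraries taken as independent. With the animal as a block it gave 1.61 (FDR 7.5e-05 by the likelihood ratio test and 0.0266 by the quasi-likelihood F test), so the call on the breed difference depended on the pairing. From 2 h to 8 h HBEGF fell by 3.73 on the log2 scale (SE 0.33, FDR 1.14e-22).

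HBEGF was under the level filter in the comparison of 8 h with 0 h and between breeds at 0 h and 8 h, and was then tested by exact permutation on log2(CPM + 0.1). At 8 h it was lower than at 0 h in 6 of 8 animals, with a mean difference of -0.50 (exact sign-flip p = 0.0312, two-sided, unadjusted). Leaving out any single Angus animal, or Holstein 1 or 2, gave an exact sign-flip p of 0.0625. The Holstein minus Angus difference was -0.97 at 0 h (exact permutation p = 0.0571, n = 4 per breed) and -0.55 at 8 h (exact permutation p = 0.0857). The gene-free row adjoining the 3′ end of HBEGF (53193429 to 53216664) also rose at 2 h in all 8 animals, from 0.234 ± 0.0999 to 1.57 ± 0.83 CPM in Angus and from 0.271 ± 0.054 to 1.78 ± 0.54 CPM in Holstein.

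EREG, epiregulin, lies on the plus strand of chromosome 6 (91054468 to 91072239) and was under the level filter in every comparison, with 1003 counts over all 24 libraries. Angus animals held 0.413, 0.222, 0.230 and 0.195 CPM at 0 h, 1.52, 0.326, 1.41 and 0.833 CPM at 2 h, and 1.97, 0.377, 1.94 and 0.265 CPM at 8 h. Holstein animals held 0.0747, 0, 0.0772 and 0.0657 CPM at 0 h, from 0 to 7 counts, then 0.124, 0.0760, 0.209 and 0.272 CPM at 2 h and 0.209, 0.221, 0.195 and 0.974 CPM at 8 h. All 8 animals were higher at 2 h and at 8 h than at 0 h, and unlike HBEGF the 8 h level had not returned to the start. At 0 h and 2 h every Angus animal was above every Holstein animal, while at 8 h the breeds overlapped. Angus 1 and Angus 3 were the highest of all at 2 h and 8 h.

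On log2(CPM + 0.1) EREG rose by 1.13 at 2 h and by 1.43 at 8 h (exact sign-flip p = 0.00781 for each, 8 animals, two-sided, unadjusted and the smallest p that 8 animals allow). The Holstein minus Angus difference was -1.24 at 0 h and -1.94 at 2 h (exact permutation p = 0.0286 for each, n = 4 per breed, the smallest p possible), and -1.14 at 8 h (exact permutation p = 0.171). In all, 8 such tests were run on rows under the filter. AREG, amphiregulin, lies next to EREG in the RefSeq list, where AREGB is given as its synonym. The AREGB row (chromosome 6, 91126256 to 91138401) held 2 counts over all 24 libraries, both in Holstein 1 at 8 h, and was not tested.

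EGFR, the receptor of these ligands, lies on the minus strand of chromosome 22 (891144 to 1069280). At 0 h Angus animals held 12.2, 9.51, 9.66 and 11.6 CPM and Holstein animals 9.09, 8.89, 8.62 and 8.37 CPM, with no overlap. At 2 h Angus held 8.08, 6.87, 7.70 and 7.90 CPM, and Holstein 8.68, 8.62, 7.77 and 9.56 CPM. At 8 h Angus held 5.87, 5.90, 5.90 and 5.59 CPM and Holstein 5.66, 6.68, 6.95 and 6.52 CPM. All 8 animals were lower at 8 h than at 0 h. At 2 h all 4 Angus animals were lower already, and so were all Holstein animals but Holstein 4.

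The 8 h fall of EGFR was of less than 2-fold, -0.66 on the log2 scale (SE 0.10, FDR 1.94e-08), with -0.87 in Angus (SE 0.15, FDR 1.97e-06) and -0.43 in Holstein (SE 0.13, FDR 0.00795). At 2 h the value was -0.48 in Angus (SE 0.16, FDR 0.0197) and -0.02 in Holstein (SE 0.12, FDR 0.975). Without the 4 libraries of other COL1A1 counting the Holstein value at 8 h was -0.44 (FDR 0.114) and the Angus value at 2 h -0.45 (FDR 0.108), so these calls were lost at nearly the same size. The interaction at 2 h was 0.48 (SE 0.17, FDR 0.441), and 0.47 with the animal as a block (FDR 0.00658 by the likelihood ratio test and 0.0387 by the quasi-likelihood F test). The breed difference at 0 h was -0.28 (SE 0.14, FDR 0.178). The gene-free row adjoining the 3′ end of EGFR (767478 to 891143) fell past the threshold in Angus at 8 h, by 1.17 on the log2 scale (SE 0.22, FDR 1.6e-05). The receptor was thus lowest at 8 h, the hour at which EREG was at its highest mean in both breeds.

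FGF2, basic FGF, lies on the minus strand of chromosome 17 (35199615 to 35259135). At 0 h Angus animals held 19.2, 19.5, 26.2 and 12.8 CPM and Holstein animals 24.5, 39.2, 30.5 and 44.9 CPM, which overlapped through Angus 3. At 2 h the values were 15.6, 20.2, 31.6 and 13.7 CPM in Angus and 31.4, 43.9, 32.7 and 49.7 CPM in Holstein, and at 8 h 15.3, 16.4, 19.2 and 14.6 CPM against 21.4, 29.3, 26.4 and 43.0 CPM. The breeds were separate at 8 h only. FGF2 was higher in Holstein by 0.86 at 0 h (SE 0.25, FDR 0.00912), 0.95 at 2 h (SE 0.28, FDR 0.00638) and 0.88 at 8 h (SE 0.21, FDR 0.00121) on the log2 scale, each less than 2-fold. Without the 4 libraries of other COL1A1 counting the breed difference was 0.35 at 0 h (FDR 0.558, 5 libraries), where the call was lost. At 2 h, where this leaves out Angus 3 alone, it was 1.26 (FDR 4.56e-07) and passed the 2-fold limit. In that fit 1289 of all rows passed, against 898 with Angus 3. With LPS, FGF2 was higher than at 0 h in 7 of 8 animals at 2 h and in 1 of 8 at 8 h. The change was 0.14 at 2 h (SE 0.29, FDR 0.831) and -0.22 at 8 h (SE 0.27, FDR 0.673) with libraries taken as independent. With the animal as a block it was 0.11 at 2 h (FDR 0.157) and -0.21 at 8 h (FDR 0.00883), a fall of far less than 2-fold. NUDT6, on the opposite strand, overlaps the end of FGF2 and gave nearly the same breed values, 0.81, 0.97 and 0.85 (FDR 0.0173, 0.00413 and 0.00152). As no use of strand is stated for the counting, reads in the overlap cannot be assigned to either gene.

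FGF7, keratinocyte growth factor, lies on the minus strand of chromosome 10 (61005653 to 61068184). Angus animals held 31.6, 52.3, 42.9 and 39.8 CPM at 0 h and 26.2, 45.5, 44.6 and 34.1 CPM at 2 h. At 8 h they held 66.1, 88.2, 98.6 and 68.1 CPM. Holstein animals held 46.6, 30.3, 29.3 and 22.3 CPM at 0 h, 42.6, 28.1, 23.9 and 19.9 CPM at 2 h and 94.7, 70.1, 54.1 and 63.9 CPM at 8 h. In both breeds the 8 h values lay above all values of 0 h and 2 h, and the breeds overlapped at each hour. Holstein 1, the animal with KRT5, was the highest Holstein animal at each hour, and the part of KRT5-bearing cells in this was not tested.

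FGF7 rose at 8 h by 1.04 on the log2 scale (SE 0.17, FDR 1.27e-07), or 2.06-fold, and by 1.20 from 2 h to 8 h (SE 0.18, FDR 5.37e-09). In Holstein the 8 h rise was 1.15 (SE 0.24, FDR 4.51e-05), and in Angus 0.96 (SE 0.19, FDR 0.000111), just under 2-fold. The interaction was 0.18 (SE 0.32, FDR 1.0). At 2 h the change was -0.15 with libraries taken as independent (FDR 0.706) and -0.16 with the animal as a block (FDR 0.00423). Without the 4 libraries of other COL1A1 counting the rise was 0.91 over both breeds (FDR 4.05e-05) and 0.92 in Holstein (FDR 0.0195), so FGF7 kept the FDR limit and lost the fold limit. C10H15orf33, on the opposite strand, overlaps the whole of FGF7 and rose by 0.76 at 8 h (SE 0.13, FDR 7.65e-07). The reads of the overlap cannot be assigned to strand.

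FGF10, which acts on the same epithelial receptor as FGF7, lies on the minus strand of chromosome 20 (30519216 to 30619199), with no other row over it. At 0 h Angus animals held 3.61, 13.2, 18.5 and 3.27 CPM and Holstein animals 27.3, 28.5, 20.3 and 23.6 CPM. At 2 h the values were 1.97, 6.57, 13.1 and 2.15 CPM in Angus and 17.9, 21.3, 15.6 and 18.5 CPM in Holstein. Each Holstein animal was above each Angus animal at both hours. At 8 h Angus held 4.68, 9.82, 20.3 and 3.52 CPM and Holstein 19.4, 17.3, 17.8 and 17.8 CPM, and Angus 3 was the highest of all 8. The Angus animals spread far more than the Holstein animals, with 9.64 ± 7.48 CPM (SD, n = 4) against 24.9 ± 3.73 CPM at 0 h, and Angus 3 was the highest and Angus 1 and 4 the lowest Angus animals at each hour.

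The Holstein minus Angus difference of FGF10 was 1.39 on the log2 scale at 0 h (SE 0.50, FDR 0.0489), 1.62 at 2 h (SE 0.54, FDR 0.0234) and 0.92 at 8 h (SE 0.47, FDR 0.175). The 0 h call was lost without any single animal other than Angus 3, without the 4 libraries of other COL1A1 counting (1.03, FDR 0.532), by DESeq2 (FDR 0.0873) and by the quasi-likelihood F test (FDR 0.112), which also lost the 2 h call (FDR 0.0727). The 2 h call was also lost without Angus 1, 2 or 4 and without Holstein 1, 2 or 4 (FDR 0.0536 to 0.0755). Without Angus 3 the differences were 1.92 at 0 h, 2.36 at 2 h and 1.58 at 8 h, and all passed the threshold (FDR 0.000705, 2.23e-06 and 3.45e-05). Calls over all rows rose in these fits too, from 777 to 1120 at 0 h, 898 to 1289 at 2 h and 671 to 1128 at 8 h. The gene-free row adjoining the 3′ end of FGF10, at 1.96 ± 0.75 CPM in Angus and 2.28 ± 0.28 CPM in Holstein at 0 h, did not pass between breeds. Its difference was 0.23 at 0 h (SE 0.29, FDR 0.666) and 0.53 at 2 h (SE 0.27, FDR 0.163), and the breeds overlapped at each hour.

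With LPS, FGF10 was lower at 2 h than at 0 h in all 8 animals. The change was -0.50 on the log2 scale with libraries taken as independent (SE 0.51, FDR 0.593) and -0.57 with the animal as a block (FDR 6.68e-12), under 2-fold in both. In Holstein it was -0.45 at 2 h (SE 0.15, FDR 0.0167) and -0.46 at 8 h (SE 0.13, FDR 0.00382), both falls of less than 2-fold, and without the 4 libraries of other COL1A1 counting they were -0.37 (FDR 0.217) and -0.38 (FDR 0.138). In Angus it was -0.68 at 2 h (SE 0.72, FDR 0.684; -0.73 with the animal as a block, FDR 3.14e-07) and 0.00 at 8 h (SE 0.68, FDR 0.999), and 3 of 4 Angus animals were above their 0 h level at 8 h, against 0 of 4 Holstein animals. The interaction at 8 h was -0.47 (SE 0.75, FDR 1.0), and -0.50 with the animal as a block (FDR 0.1).

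FGF18 lies on the plus strand of chromosome 20 (3132655 to 3195037), and its row appeared flat, at 170 to 236 CPM in all 24 libraries, with FDR 0.739 at 2 h and 0.641 at 8 h. LOC781186, a pseudogene in RefSeq, is nested inside it (3159148 to 3159607, plus strand). From the mean depth per base of both rows, 88.3% to 99.7% of the covered bases of the FGF18 row lay inside LOC781186. The FGF18 row is therefore given here as a value of LOC781186 for the most part. Covered bases in the rest of the row were then counted per 1000000 matched reads, with a rounding error of 4.74 to 9.99 bases. This step was chosen after the values were seen.

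At 0 h the rest of the FGF18 row held 379, 1209.7, 2753 and 314 covered bases per 1000000 reads in Angus and 2830.0, 3834, 2237 and 2041 in Holstein. At 2 h it held 267, 640, 1045 and 294 in Angus and 1809, 2162, 1457 and 1438 in Holstein. Every animal was lower at 2 h than at 0 h. At 8 h Angus held 92.7, 211, 387 and 134 and Holstein 274, 261, 298 and 165. The Holstein animals had fallen 7.51-fold to 14.7-fold from 0 h to 8 h and the Angus animals 2.35-fold to 7.11-fold, and the breeds, far apart in mean at 0 h, overlapped at 8 h.

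**Figure D2:**
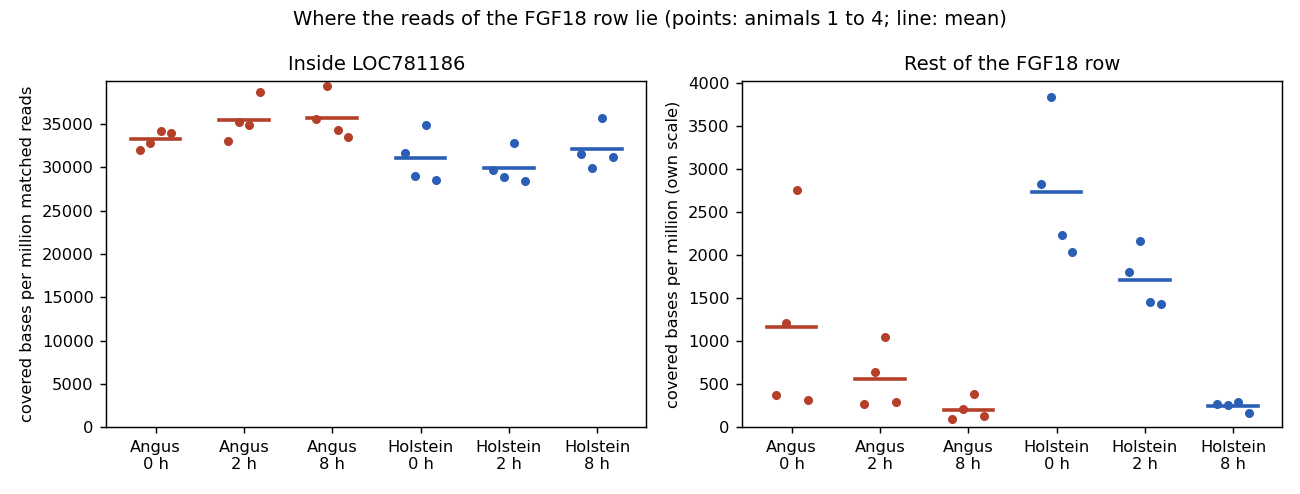
Covered bases per 1000000 matched reads inside the nested LOC781186 (left axis from 0) and in the rest of the FGF18 row (right axis from 0, on its own scale), with a point for each animal and a line for the mean of 4. The left panel stayed between 28431 and 39419 bases in all groups, while the right panel fell to 387 or less in all 8 animals at 8 h.

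The row without a gene symbol on chromosome 20 begins at the base after LOC781186, ends at 3535865 and overlaps the rest of FGF18 downstream of the pseudogene. Angus animals held 3.02, 10.3, 20.1 and 2.66 CPM at 0 h, 2.72, 6.65, 11.2 and 2.91 CPM at 2 h and 1.20, 1.71, 3.01 and 1.44 CPM at 8 h. Holstein animals held 21.6, 27.9, 17.7 and 15.7 CPM at 0 h, 16.4, 19.8, 13.6 and 13.5 CPM at 2 h and 2.38, 2.35, 2.59 and 1.67 CPM at 8 h. All 8 animals were lowest at 8 h. The covered bases of the rest of FGF18 were 0.59 to 1.07 times those of the interval in the 24 libraries. Mean depth is given rounded and the interval is 376258 bases long, so this ratio is coarse where the interval is low, as at 8 h. Since the 2 overlap they share reads and do not count as separate evidence.

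The interval fell at 8 h by 2.86 on the log2 scale over both breeds (SE 0.40, FDR 2.34e-09), by 2.28 in Angus (SE 0.62, FDR 0.0171) and by 3.20 in Holstein (SE 0.21, FDR 2.77e-41). The Angus call was lost without Angus 2 (-2.18, FDR 0.242) and by the quasi-likelihood F test (FDR 0.132), and held with the animal as a block (-1.90, FDR 3.48e-08). At 2 h the change over both breeds was -0.45 (SE 0.48, FDR 0.618), and -0.39 with the animal as a block (FDR 8.3e-05). Holstein was higher by 1.22 at 0 h (SE 0.57, FDR 0.148). Without Angus 3, where more of all rows passed, the difference was 1.98 (FDR 0.000546) and passed the threshold. Holstein was also higher by 1.43 at 2 h (SE 0.43, FDR 0.00982) and by 0.29 at 8 h (SE 0.31, FDR 0.575), and by the quasi-likelihood F test the FDR at 2 h was 0.0501. The interaction at 8 h was -0.93 (SE 0.71, FDR 1.0), and with the animal as a block -1.30 (FDR 0.0352 by the likelihood ratio test and 0.186 by the quasi-likelihood F test).

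At 0 h and 2 h the order of the Angus animals was alike in FGF10 and in the interval, with Angus 3 highest, Angus 2 next and Angus 1 and 4 lowest. The rows lie far apart on the same chromosome. At 2 h FGF10 was lower than at 0 h in all 8 animals, and the interval in all but Angus 4. At 8 h the rows parted, since FGF10 stayed at 17.3 to 19.4 CPM in Holstein while the interval was at 1.67 to 2.59 CPM.

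FGF1, acidic FGF, stood on 2 rows. The row with more reads (chromosome 7, minus strand, 67671429 to 67696388, 36920 counts) carries no coding-segment number in the tables and overlaps GALNT10 on the opposite strand. The other row (chromosome 7, minus strand, 55472447 to 55602023, 2464 counts) carries coding-segment numbers and overlaps LOC100847454 and MIR2460. RefSeq, on another assembly, lists a single FGF1, which neighbours these same genes, so the identity of the first row with FGF1 is uncertain. The first row held 18.7 to 24.7 CPM at 0 h, 19.7 to 24.2 CPM at 2 h and 13.5 to 18.9 CPM at 8 h over both breeds, and was lower at 8 h in 7 of 8 animals. It fell by less than 2-fold at 8 h, by 0.34 on the log2 scale (SE 0.10, FDR 0.00843), and the value without the 4 libraries of other COL1A1 counting was -0.30 (FDR 0.0838).

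The second FGF1 row moved the other way. Its 0 h values were 1.26, 0.665, 0.503 and 1.33 CPM in Angus and 0.896, 1.21, 0.794 and 1.09 CPM in Holstein. Its 8 h values were 2.48, 1.32, 1.16 and 1.31 CPM in Angus and 1.48, 2.50, 1.33 and 2.70 CPM in Holstein, higher in 7 of 8 animals. The change at 8 h was 0.89 on the log2 scale over both breeds (SE 0.25, FDR 0.00534) and 1.02 in Holstein (SE 0.30, FDR 0.00732), where it passed the threshold. In Angus it was 0.74 (SE 0.39, FDR 0.404). Which row is read as FGF1 thus decided the direction of its change at 8 h.

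**Figure D3:**
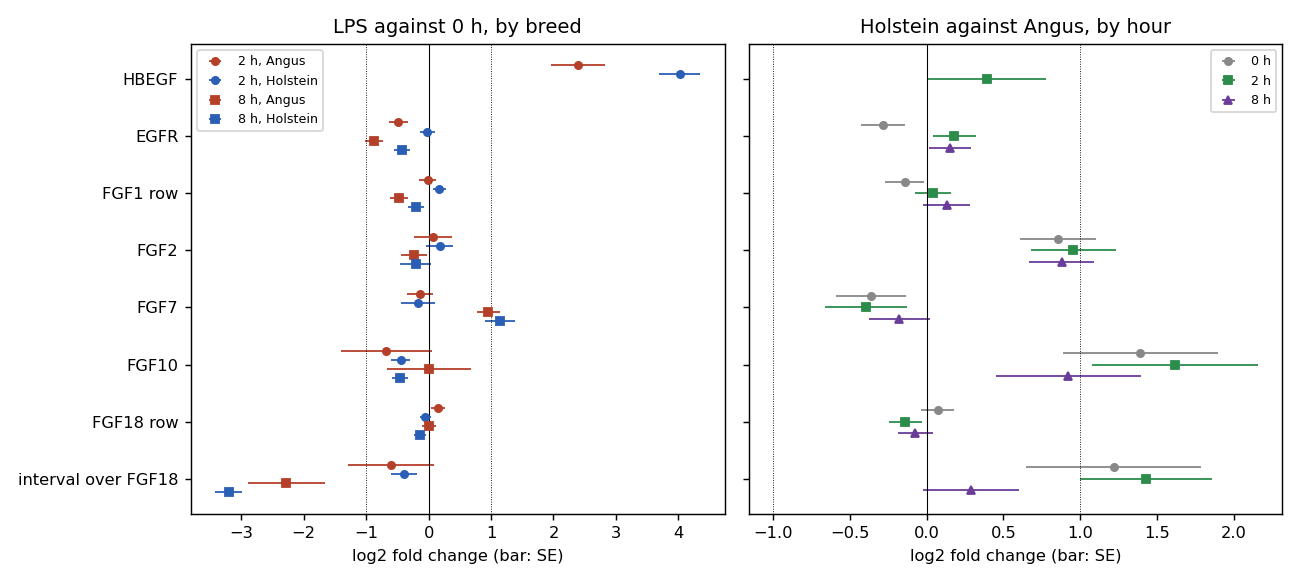
Log2 fold changes with SE of the member rows that passed the level filter, for LPS against 0 h within each breed (left) and for Holstein against Angus at each hour (right), with dotted lines at 2-fold. HBEGF at 2 h and the interval over FGF18 at 8 h lie farthest from 0 on the left, and FGF2, FGF10 and the interval lie above 0 on the right.

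Genes of the same pathways were then read from 9 lists, with counts of those past the threshold, to be read against the share of all rows that passed it (2.82% at 2 h and 1.42% at 8 h over both breeds). Among the 8 other EGF ligands, 2 were expressed enough to test, and none passed with LPS. TGFA, a further EGFR ligand, was lower in Holstein at 2 h, by 1.01 on the log2 scale (SE 0.31, FDR 0.0106), at 2.16 ± 0.14 CPM against 4.35 ± 1.79 CPM in Angus. That call was lost without Angus 1 (FDR 0.0541) or Angus 4 (FDR 0.0624), and without Holstein 1 or 2 or the other gene-free rows the difference was just under 2-fold (-0.99, -0.97 and -0.98). Among the 7 ERBB receptors and EGFR inhibitors, 5 were tested and 2 passed at 2 h. ERRFI1, an intracellular inhibitor of EGFR, rose by 2.13 (SE 0.26, FDR 1.55e-13), from 62.2 ± 17.985 to 185 ± 57.7 CPM in Angus and from 32.8 ± 12.6 to 229 ± 35.6 CPM in Holstein. LRIG3, a membrane protein of a family that includes EGFR inhibitors, fell by 1.86 (SE 0.24, FDR 1.79e-12), from 51.8 ± 7.004 to 17.6 ± 5.95 CPM and from 40.0 ± 1.48 to 7.78 ± 0.40 CPM. At 8 h LRIG3 was at 53.9 ± 5.17 and 41.0 ± 5.13 CPM and ERRFI1 at 72.9 ± 21.7 CPM in Angus and 62.0 ± 14.8 CPM in Holstein, where it was still 0.92 above 0 h on the log2 scale (SE 0.27, FDR 0.00839), less than 2-fold.

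All 6 ligand sheddases were tested and none passed the 2-fold limit. At 2 h ADAM17, which releases EGFR ligands, rose by 0.35 (SE 0.08, FDR 0.000145) and its partner RHBDF2 by 0.57 (SE 0.10, FDR 9.22e-07), both less than 2-fold.

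Of the 17 other FGF ligands, 4 reached the filter and none passed with LPS. FGF19, an FGF known as a gut hormone, was higher in Holstein at 2 h by 1.59 (SE 0.54, FDR 0.0257), a call lost by the quasi-likelihood F test (FDR 0.0698), without Angus 4 (FDR 0.0607) and without Holstein 1, 3 or 4 (FDR 0.0508, 0.0711 and 0.11). Of the 7 FGF receptors and co-receptors, 4 were tested. FGFR3 fell at 8 h by 1.36 (SE 0.35, FDR 0.00234), from 5.48 ± 2.48 to 1.96 ± 0.81 CPM in Angus and from 2.33 ± 0.84 to 1.06 ± 0.17 CPM in Holstein, and started lower in Holstein (-1.22, SE 0.38, FDR 0.0184 at 0 h), a call that was lost without the 4 libraries of other COL1A1 counting (-0.94, FDR 0.409), by the quasi-likelihood F test (FDR 0.0708) and without Angus 2 or 4 or Holstein 3 or 4 (FDR 0.0705 to 0.107). FGFRL1, a receptor without a kinase domain, fell in Holstein at 8 h by 1.10 (SE 0.37, FDR 0.0238), a call lost without the 4 libraries (-1.14, FDR 0.127), by the quasi-likelihood F test (FDR 0.0708), with no filter (FDR 0.0562) and without Holstein 2, 3 or 4 (FDR 0.258, 0.167 and 0.0865).

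Of the 11 FGF carriers and heparan sulfate proteoglycans, 8 were tested, and 2 rose and 0 fell past the threshold at 2 h. GPC6, a glypican, rose by 1.80 (SE 0.32, FDR 9.38e-07) and stayed 1.20 above 0 h at 8 h (SE 0.27, FDR 0.00028). Its 2 h call in Angus was lost by the quasi-likelihood F test (1.86, FDR 0.0554) and without Angus 2 (1.96, FDR 0.054). Without the 4 libraries of other COL1A1 counting the Angus rise was just under 2-fold (0.98, FDR 0.0403). SDC4, a syndecan, rose by 1.76 (SE 0.18, FDR 3.01e-20). SDC1, another syndecan, was higher in Holstein at each hour, by 1.34, 1.28 and 1.17 (FDR 2.84e-06, 9.23e-07 and 2.57e-05; 0.98 at 8 h without Angus 4), and at 0 h the Angus values (24.4 to 53.1 CPM) all lay under the Holstein values (86.2 to 119 CPM).

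All 14 RAS-ERK transducers were tested and none passed over both breeds. The adaptor GAB1 came nearest, at -0.93 at 2 h (SE 0.10, FDR 4.68e-17), and passed in Angus at -1.07 (SE 0.15, FDR 5.9e-11).

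Over both breeds, the ERK feedback inhibitors held the most genes past the threshold of the 9 lists at 2 h. The lists were chosen with earlier results of these data known, so this ranking is a description only. Of 10 listed, 8 were tested, 3 rose and 1 fell past the threshold, against 2.82% of all rows, and the median change over the list was 0.44 on the log2 scale, against -0.00 over all rows tested. DUSP5, a nuclear ERK phosphatase, rose by 3.65 (SE 0.38, FDR 2.14e-16) and DUSP6, the cytoplasmic one, by 1.78 (SE 0.35, FDR 1.32e-05). The Sprouty gene SPRY4 rose by 1.26 (SE 0.26, FDR 3.4e-05), while SPRY1 fell by 1.69 (SE 0.22, FDR 3.82e-12). In Holstein 4 rose and 1 fell at 2 h, with SPRY2 added (3.14% of all rows passed), and in Angus 1 rose and 1 fell (2.98% of all rows). The list did not lead in Angus at 2 h. There 1 rose and 1 fell among the ERBB receptors and EGFR inhibitors, and 2 rose among the FGF carriers and heparan sulfate proteoglycans. GPC6 was 1 of these 2, and its Angus call was lost in the alternatives given above.

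DUSP5 and DUSP6 passed the interaction test at 2 h, at 2.3015 (SE 0.53, FDR 0.00708) and 2.24 (SE 0.47, FDR 0.00174), with a larger rise in Holstein. DUSP6 was at 3.38 ± 0.92 CPM in Holstein and 8.45 ± 4.40 CPM in Angus at 0 h and at 26.5 ± 7.69 and 14.0 ± 1.70 CPM at 2 h. By the quasi-likelihood F test neither passed (FDR 0.15 for DUSP5 and 0.0884 for DUSP6), and DUSP6 did not pass without the 4 libraries of other COL1A1 counting (1.87, FDR 0.126). The DUSP5 interaction was also lost without Angus 1 or 4 and without Holstein 1 or 2 (FDR 0.07 to 0.134).

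Of the 7 ERK target transcription factors, all were tested. FOSL1 rose by 2.12 at 2 h (SE 0.38, FDR 1.48e-06), by 1.52 in Angus (SE 0.38, FDR 0.00158) and by 3.32 in Holstein (SE 0.16, FDR 3e-74). The FOSL1 interaction at 2 h was 1.81 (SE 0.44, FDR 0.0141), and the call was lost by the quasi-likelihood F test (FDR 0.189), without the 4 libraries of other COL1A1 counting (FDR 0.185) and without any single animal but Angus 2 or 3 (FDR 0.0672 to 0.183). FOS fell, by 1.13 at 2 h (SE 0.21, FDR 2.89e-06) and by 1.05 at 8 h (SE 0.23, FDR 0.000137). The 8 h fall of FOS was under 2-fold without the 4 libraries of other COL1A1 counting (-0.97, FDR 0.00234) and without Holstein 4 (-0.90, FDR 0.00274). EGR1 fell by 1.86 at 8 h (SE 0.34, FDR 4.54e-06). Members of the same list thus moved in opposite directions.

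**Figure D4:**
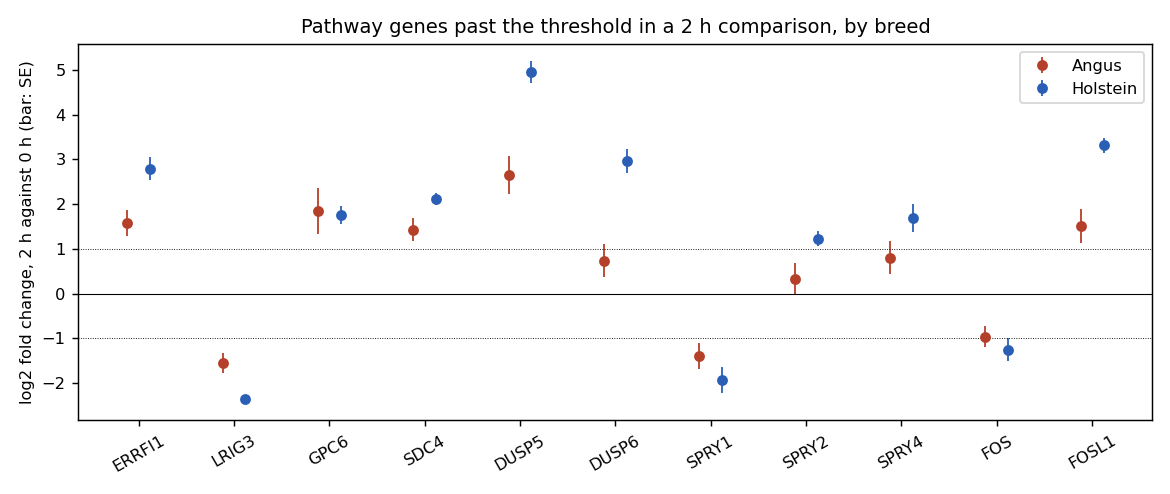
Log2 fold change of 11 pathway genes at 2 h of LPS against 0 h (vertical axis) in Angus and in Holstein, with SE bars and dotted lines at 2-fold. Among the 11 genes drawn, the Holstein value is farther from 0 than the Angus value for each but GPC6. The genes were picked for passing at 2 h in these data, and SPRY2 passed in Holstein but not over both breeds. The tally is therefore partly set by the choice of genes and is a description only. For DUSP5, DUSP6 and FOSL1 the difference passed the interaction test by the likelihood ratio. GAB1, which passed at 2 h in Angus but not in Holstein, is not drawn.

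Of the 12957 or fewer rows with a symbol that could be compared with a member, the 3 with the highest Pearson r of log2(CPM + 1) over the 24 libraries were taken as most alike. The libraries share animals, breeds and hours, so the r values are descriptions. For the interval over FGF18 they were EBF1 (0.98), EEF2K (0.95) and SSBP2 (0.95), and for FGF10 PLA2G16 (0.96), ZFHX4 (0.96) and ADAMTSL4 (0.96). For FGF7 they were TGM3 (0.88), UTP18 (0.88) and GBP5 (0.86), and for EGFR LOC100300830 (0.90), CNNM3 (0.85) and SPTBN1 (0.85). For FGF2 all 3 were LOC rows on chromosome X, LOC100299061, LOC100847694 and LOC777601, each at 0.94. For the FGF18 row they were RPS15A, a ribosomal protein gene, LOC782812 and LOC616893 (0.89, 0.88 and 0.88), and for the first FGF1 row DOCK1 (0.87), PTTG1IP (0.83) and PLXND1 (0.82). HBEGF and EREG did not pass 1 CPM in enough libraries for this.

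Among the members themselves EGFR and the first FGF1 row were the most alike (r = 0.78), followed by FGF2 and FGF10 (0.78), and FGF7 and the first FGF1 row were the most unlike (-0.74).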

How the data were processed

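RNA-seq of DF from 4 Holstein and 4 Angus animals at 0, 2 and 8 h of LPS (100 ng/ml) was analysed. The authors pooled duplicate wells, made poly(A) TruSeq libraries, which carry no strand mark, processed reads with CASAVA 1.7 (per the submitters' notes), filtered them and aligned them with NextGENe 2.3.4 to UMD v3.1. The deposited read counts per gene or gene-free interval are not normalized. They summed to 1.5 to 1.71 per matched read. The deposited mean depth (coverage signal, "Average Counts" per the file headers) served only to split the FGF18 row.

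Gene-free rows (12.28% to 20.53% of counts) were kept in library sizes and tests, since a member is such a row, and an alternative left out the others. The highest share was that of Angus 3 at 2 h, which also had the lowest TMM factor (0.8314). The remaining libraries held 15.45% or less. Each comparison was fitted on its own libraries with edgeR 4.0.16 by the likelihood ratio test, as the study states. TMM scaling and no animal block were choices made here, since the study states neither. Named genes were the members, at most 4 genes per pathway list with the largest changes past the threshold, and the 3 most similar rows. ADAM17 and RHBDF2, under 2-fold, and SPRY2, the fifth of its list, were named beside this rule after their values were seen. The members and lists were chosen with earlier results of these data known. Members under the filter had exact permutation tests where at least 4 libraries reached 3 counts. Alternatives were the quasi-likelihood F test, DESeq2 1.42.0, RLE scaling, no filter, the FDR limit alone, an animal block, and leaving out animals or the 4 libraries of other COL1A1 counting. The fit was tested on simulated data with 200 changed rows. For breeds at 0 h, 84% of the 100 rows changed 2-fold met the FDR limit in the right direction. The fold limit was not applied there, and the median absolute estimate of these rows was 0.988 on the log2 scale, just under that limit. Deviations from group means correlated between hours of the same animal (mean r 0.659 for 0 h and 2 h, lowest 0.545, and 0.619 and 0.534 for 0 h and 8 h), and the pairing comes from the animal numbers in the labels. No replicate pair agreed within sampling noise (36 pairs, chi-square per degree of freedom 29.6 to 414.6). Gene names of 2 rows were compared with RefSeq on ARS-UCD2.0, from which no coordinates were taken. No sequences are shown, since none were supplied for this build. Breed, the 4 animals and their cultures cannot be separated further.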

Additional observations from a re-analysis of the deposited data

Results flagged for a closer look

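Within groups of 4, 6 values of a member or of the second FGF1 row stood apart from the other 3 by Dixon's test at the 95% level, of 60 groups tested, and chance flags about 1 group in 20. They were HBEGF in Angus 1 at 8 h (0.923 CPM), EREG in Angus 1 at 0 h (0.413 CPM), EREG in Holstein 2 at 0 h (0 CPM), EREG in Holstein 4 at 8 h (0.974 CPM), EGFR in Angus 4 at 8 h (5.59 CPM) and the second FGF1 row in Angus 1 at 8 h (2.48 CPM). Angus 1 accounts for 3 of the 6. EREG in Holstein 4 at 8 h rests on 97 counts, against 12 to 21 in the other Holstein libraries of that hour.

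The FGF18 row, mostly LOC781186, was higher at 2 h than at 0 h in all 4 Angus animals and lower in all 4 Holstein animals. The mean changes differed by -28.5 CPM (Holstein minus Angus), a small part of a level near 200 CPM. The interaction test gave -0.20 on the log2 scale (SE 0.13, FDR 1.0), and with the animal as a block -0.19 (FDR 0.149).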

How the results depend on the processing

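No member past the threshold changed direction under any alternative (198 values, of which 23 were no longer past it), and neither did a named pathway gene (891 values, 64 no longer past it). The counts of members past the threshold were as follows where they moved. At the FDR limit alone they were 4 for LPS 8 h, 5 for 8 h against 2 h, 2 and 4 for LPS 2 h and 8 h in Angus, the same 2 and 4 in Holstein, and 2, 3 and 1 between breeds at 0, 2 and 8 h. By the quasi-likelihood F test they were 0 for LPS 8 h in Angus and 0 between breeds at 0 h and 2 h, and DESeq2 and no filter also gave 0 at 0 h. Without the 4 libraries of other COL1A1 counting they were 1 for LPS 8 h, 1 for LPS 8 h in Holstein, 0 between breeds at 0 h and 3 at 2 h. Leaving out each animal gave 1 to 2 for LPS 8 h in Angus, 0 to 3 between breeds at 0 h, 1 to 3 at 2 h and 0 to 1 at 8 h. The replicate block of animals gave 1 for each interaction, and with the block and the quasi-likelihood F test 1 at 2 h and 0 at 8 h. No other count past the full threshold changed by the pairing. At the FDR limit alone the pairing did add members, as at 2 h of LPS. Leaving out other gene-free rows changed no member count.

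For the 8 permutation tests on rows under the filter, 72 alternative values kept their direction, and 22 crossed 0.05, which leaving out an animal cannot avoid for the breeds (smallest p 0.0571). The 22 include HBEGF at 8 h against 0 h (exact sign-flip p 0.0625), where that limit does not apply.

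Over all rows the interaction counts were the least stable: 56 at 2 h and 20 at 8 h, 126 and 100 with the block, and 16 and 0 by the quasi-likelihood F test. Between breeds at 0 h, 258 rows passed without the 4 libraries, against 777, and LPS 8 h in Angus gave 90 by the quasi-likelihood F test, against 178. Without other gene-free rows the counts were 369 for LPS 2 h (568 with them), 368 for 8 h against 2 h (560), 403 in Angus (607) and 407 in Holstein (638) at 2 h, and 28 for the interaction at 2 h. Depth limits EREG in Holstein at 0 h, where 0 to 7 counts stand behind each value.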
